A study of Mus musculus with 6 samples.

Results

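The 37 genes described here encode the class I and class II molecules of the mouse major histocompatibility complex (MHC) and the proteins that make, carry and load their peptides. They were taken by gene symbol, and every symbol had a row among the 33300 of the deposited expression table. The class I side held 28 of them: 15 heavy chains, the light chain B2m, 5 genes of peptide transport and loading, 6 of the immunoproteasome and its activators, and the regulator Nlrc5. The class II side held the other 9: 3 chains, 4 genes of peptide exchange, the invariant chain Cd74 and the regulator Ciita.

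CD4 T cells of 3 mice labelled Control, with the genotype WT, and of 3 SLE1.2.3 mice gave 1 RNA library each. Lupus-prone mice of the SLE1.2.3 line carry the susceptibility intervals Sle1, Sle2 and Sle3; the labels give neither the strain of the WT mice nor the H2 haplotype of either group. How reads that match more than 1 gene were counted is not given in the sources used here either. A haplotype other than the reference genome's can change how reads map to single H2 genes, and this was not tested; it bears on every level, share and ratio of a single H2 gene below. All mice were female and age-matched, with no age stated. Naive CD4 T cells of both groups were cultured for 5 days on plates coated with antibodies to CD3 and CD28 under Th17 conditions. These were IL-6 at 50 ng/mL, both IL-1β and IL-23 at 10 ng/mL, TGF-β1 at 1 ng/mL, and blocking antibodies to IL-4 and to interferon-γ at 10 µg/mL each, so the cultures of both groups held an antibody to interferon-γ.

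Class I molecules sit on almost every nucleated cell and show peptides cut from the cell's own proteins to CD8 T cells. The proteasome cuts the proteins, the TAP transporter carries the peptides into the endoplasmic reticulum, and a loading complex fits them into a heavy chain paired with β2-microglobulin. Class II molecules show peptides from endosomes to CD4 T cells and belong mainly to B cells, dendritic cells and macrophages; resting mouse T cells make little of them. NLRC5 drives class I genes and CIITA class II genes, and interferon-γ is known to raise both.

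Levels are FPKM, fragments scaled by gene length and by the reads assigned in the library, and they are listed for mouse 1, 2 and 3 of a group. Changes are differences between groups in log2(FPKM + 1), SLE1.2.3 minus control, with the standard error and the Benjamini-Hochberg adjusted p of limma, fitted on the 11378 genes whose mean reached 1 FPKM; a gene was called at an adjusted p under 0.05. The fold of means is on the FPKM scale and the log2 change is not, so the log2 change understates the difference of low genes.

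The control libraries held between 29.7 M and 56.8 M assigned reads and the SLE1.2.3 libraries between 61.7 M and 83.5 M. Every SLE1.2.3 library was thus deeper than any control. The genes of CD4 T cells (Cd3e, Cd4, Trac and 7 others) were present in all 6, and their summed level ran from 2315 to 2452 FPKM in the control and from 1649 to 2562 in the SLE1.2.3 libraries. Of 8 Th17 genes, 6 were called higher, among them Il17a, as were 9.65% of all genes tested. Il17f and Il21 were not called, and Il21 was lower in every SLE1.2.3 library than in any control. The sum of the 8 ran from 1011 to 1746 in the control and from 2772 to 3164 in the SLE1.2.3 libraries. Il17a alone had a mean of 604 in the controls and 2029 in SLE1.2.3 mice. The SLE1.2.3 libraries also stood apart from the controls, and from each other, in genes of other lymphocytes. The sum of 8 markers of γδ T cells was between 2.86 and 3.15 FPKM in the controls and 55.5, 254 and 568 in SLE1.2.3 mice 1, 2 and 3. The controls' mean was under 1 FPKM for each of these 8, so they were tested only through their SLE1.2.3 level and no count of calls is given. The sum of 8 markers of CD8 T and NK cells was between 10.95 and 12.1 in the controls and 30.3, 90.5 and 155 in the SLE1.2.3 mice. Cd4 itself was 246, 264 and 253 in the controls and 257, 144 and 71.6 in SLE1.2.3 mice. In such bulk RNA, fewer cells of a type and less RNA per cell cannot be told apart. The part of these genes' cells in the results below was not tested.

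Promoters of 28 of the 37 genes were found in RefSeq's table for GRCm38.p6, and the stretches that follow show the elements by which class I heavy chain promoters resemble each other. Capitals mark a κB-type match (GGGGATTCCC) and the class I version of the interferon-stimulated response element, or ISRE (GTTTCACTTC); both sets of letters were chosen after the sequences were seen. All run 5′ to 3′ on the gene's own strand and lie before the RefSeq start. For H2-D1, 30 bases are shown, since GENCODE M21 places a longer transcript's exon there.
H2-K1, chr17:34000414-34000483, minus strand: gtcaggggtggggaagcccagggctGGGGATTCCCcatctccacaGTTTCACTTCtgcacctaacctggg
H2-D1, chr17:35262923-35262952, plus strand: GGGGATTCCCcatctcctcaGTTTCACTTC
H2-Q6, chr17:35424652-35424721, plus strand: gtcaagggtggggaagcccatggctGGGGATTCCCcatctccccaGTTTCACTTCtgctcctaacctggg
H2-Q7, chr17:35438996-35439065, plus strand: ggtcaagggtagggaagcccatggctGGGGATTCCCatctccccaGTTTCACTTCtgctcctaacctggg
H2-Q4, chr17:35379418-35379487, plus strand: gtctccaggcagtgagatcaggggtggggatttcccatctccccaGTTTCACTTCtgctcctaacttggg
H2-Q10, chr17:35469888-35469957, plus strand: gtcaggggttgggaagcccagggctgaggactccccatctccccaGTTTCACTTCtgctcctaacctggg
H2-M3, chr17:37270087-37270156, plus strand: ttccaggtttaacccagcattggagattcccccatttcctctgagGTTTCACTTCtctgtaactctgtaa

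The 30 bases from the κB-type match to the end of the ISRE differed at 1 base between H2-K1 and H2-D1, at 1 between H2-K1 and H2-Q6, and at 1 between H2-D1 and H2-Q6. Searched on both strands in the 250 bases before the start, GTTTCACTTC was found in 7 members and in 0.11% of all 32851 promoters of the table, and GGGGATTCCC in 4 members and 0.085% of all. A match is a description of the letters, not a binding site, and no match says only that these letters are not in this window. The general ISRE core, GAAA followed after any 2 bases by another GAAA, was in 3 members and 2.98% of all promoters: in B2m and in H2-T23 and H2-T22, whose matches stand in capitals here, as its reverse complement in both T genes. No member held both the general core and GTTTCACTTC.
B2m, chr2:122147503-122147572, plus strand: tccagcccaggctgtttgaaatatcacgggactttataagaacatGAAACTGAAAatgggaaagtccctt
H2-T23, chr17:36032806-36032835, minus strand: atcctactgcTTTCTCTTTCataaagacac
H2-T22, chr17:36042914-36042943, minus strand: attggcttagTTTCACTTTCgaatccccaa

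On the class I side, 8 of 15 heavy chains (11 tested), the light chain B2m, 8 of 11 genes of the peptide machinery and the regulator Nlrc5 were called higher in SLE1.2.3 cells. The classical heavy chains H2-K1 and H2-D1 rose by 0.61 and 0.38 on the log2 scale, and the 6 called chains of the Q, T and M regions by 0.64 to 1.58. Of the 28 genes on the class I side, 24 were tested and 18 were called higher, with 0 called lower; across all genes tested 15.2% were called, 9.65% higher and 5.58% lower. The median log2 change of the 24 was 0.63, beside 0.01 over all genes. All 18 also had every SLE1.2.3 library above every control library, a pattern that 23.9% of all genes tested showed in that direction (41.5% in either). The lowest group mean among the 24 tested genes was 2.73 FPKM, above the limit of 1 for testing, so none was tested on the strength of 1 group alone. At an unadjusted p under 0.05 the count was 21 higher and 0 lower, and with voom on recovered reads 18 and 0.

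**Figure D1:**
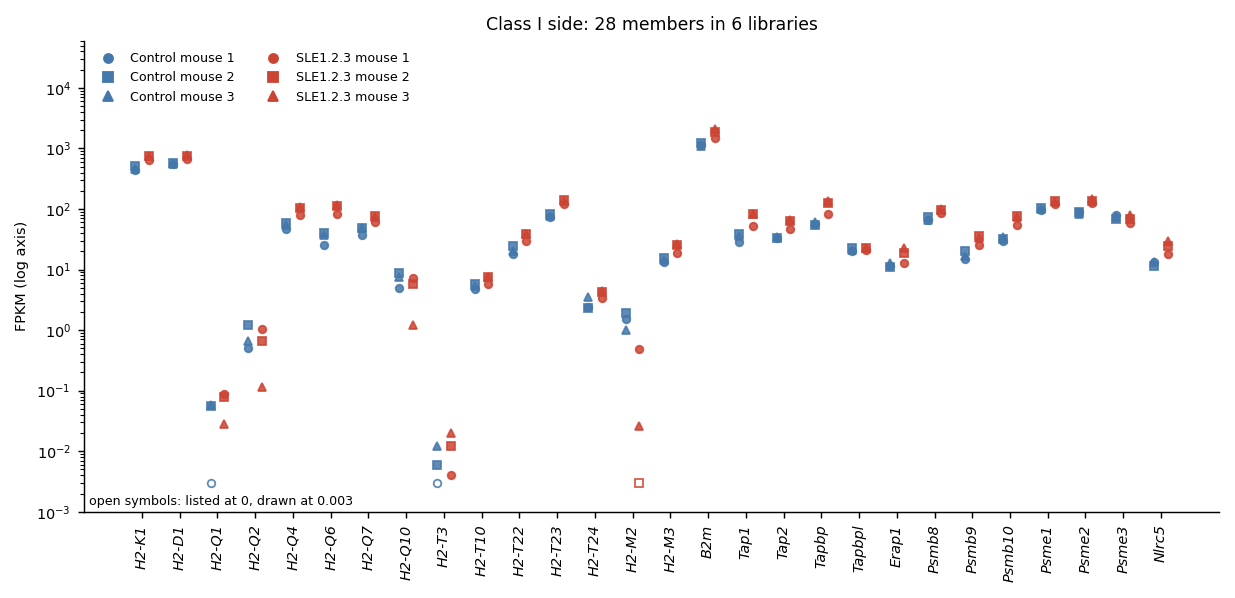
FPKM on a log axis for the 28 genes of the class I side, by library: circles, squares and triangles are mice 1, 2 and 3, blue for control and red for SLE1.2.3, and open symbols are values listed at 0, drawn at 0.003. H2-K1, H2-D1 and B2m lie highest, and for 18 genes all red symbols lie above all blue ones.

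The classical heavy chains H2-K1 and H2-D1, which present most peptides to CD8 T cells, were among the highest of all members. H2-K1 was 446, 506 and 456 FPKM in the controls and 637, 758 and 757 in SLE1.2.3 mice. The groups did not overlap, SLE1.2.3 mouse 1 being the lowest of its group. The mean rose from 469 ± 32.3 (SD, n = 3) to 717 ± 69.3, a log2 change of 0.61 ± 0.11 (SE; limma, adjusted p = 0.0203). H2-D1 was 547, 577 and 550 in the controls and 658, 749 and 780 in SLE1.2.3 mice. It rose less, from 558 ± 16.5 to 729 ± 63.5, and passed just under the limit with a log2 change of 0.38 ± 0.10 (limma, adjusted p = 0.048). The ratio of H2-K1 to H2-D1 was 0.814, 0.877 and 0.829 in the controls and 0.968, 1.01 and 0.970 in SLE1.2.3 mice, again with no overlap. As a share of all summed heavy chain FPKM, H2-D1 made up 43.3 ± 1.43% (SD, n = 3) in controls and 37.9 ± 0.77% in SLE1.2.3 cells, while H2-K1 made up 36.4 ± 0.49% and 37.3 ± 0.29%.

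Genes of the Q region, which encode class Ib chains close in sequence to the classical ones, held the widest spread of changes. H2-Q6 was 25.3, 40.9 and 36.9 FPKM in the controls and 83.7, 114 and 114 in SLE1.2.3 mice. Its mean rose from 34.4 ± 8.11 to 104 ± 17.5 (SD, n = 3), the largest change of any tested member (log2 1.58 ± 0.21; limma, adjusted p = 0.0095). Its share of the heavy chain total went from 2.65 ± 0.50% to 5.37 ± 0.40%. H2-Q7, its neighbour and the source of the Qa-2 antigen together with it, was 36.6, 49.3 and 47.8 in the controls and 61.0, 76.8 and 74.8 in SLE1.2.3 mice (log2 0.66 ± 0.14; limma, adjusted p = 0.032). H2-Q6 stood below H2-Q7 in every control library and above it in every SLE1.2.3 library: their ratio was 0.690, 0.830 and 0.773 in controls and 1.37, 1.48 and 1.53 in SLE1.2.3 mice. In the annotation, 13.9% of the 50-base windows of H2-Q6 transcripts occur in H2-Q7 too, and 32.0% in any other gene, so the split of reads between these genes is uncertain. H2-Q4 was 46.3, 58.8 and 53.4 in the controls and 79.8, 104 and 109 in SLE1.2.3 mice (log2 0.86 ± 0.14; limma, adjusted p = 0.0177).

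H2-Q10, known as a secreted class I chain of the liver, carried the same GTTTCACTTC letters but did not follow its neighbours. It was 4.99, 8.81 and 7.495 FPKM in the controls and 7.29, 5.76 and 1.22 in SLE1.2.3 mice. Only SLE1.2.3 mouse 3 lay outside the control range, and the log2 change of -0.67 ± 0.50 (95% interval -1.88 to 0.54) did not pass (limma, adjusted p = 0.377). H2-Q2, at 0.501, 1.203 and 0.663 in the controls and 1.04, 0.669 and 0.116 in SLE1.2.3 mice, and H2-Q1, at no more than 0.088 in any library, were too low to be tested. H2-Q1 had 0 reads in control mouse 1, which allows up to 0.0208 FPKM at the upper limit of 3 reads.

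Among the 7 T and M region chains, 5 were tested and 3 of these called higher. H2-T23 encodes Qa-1, the ligand of the inhibitory receptor CD94/NKG2A, and its 74.8, 83.7 and 76.1 FPKM in controls stood against 119, 138 and 135 in SLE1.2.3 mice. Its log2 change of 0.73 ± 0.09 (limma, adjusted p = 0.0078) was past the threshold in every one of the 18 other ways of computing it. The ratio of H2-T23 to H2-K1 was 0.168, 0.165 and 0.167 in controls and 0.186, 0.182 and 0.179 in SLE1.2.3 mice. H2-T22, whose product is bound by some γδ T cell receptors, was 18.2, 24.1 and 20.3 in controls and 29.8, 38.2 and 38.2 in SLE1.2.3 mice (log2 0.73 ± 0.14; limma, adjusted p = 0.0229). H2-M3, which presents N-formyl peptides, was 13.5, 15.7 and 14.6 in controls and 19.1, 25.1 and 26.003 in SLE1.2.3 mice (log2 0.64 ± 0.13; limma, adjusted p = 0.0267).

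The remaining T and M chains were low. H2-T10, 31.7% of whose 50-base transcript windows occur in H2-T22, was 4.68, 5.82 and 5.30 FPKM in controls and 5.73, 7.49 and 7.54 in SLE1.2.3 mice, and its log2 change of 0.33 ± 0.12 did not pass (limma, adjusted p = 0.108). H2-T24 was 2.39, 2.33 and 3.47 in controls and 3.44, 4.30 and 4.39 in SLE1.2.3 mice (log2 0.44 ± 0.14; limma, adjusted p = 0.0819). For both genes the groups overlapped in 1 library on each side. H2-M2, below the limit for testing, ran the other way: it was 1.499, 1.92 and 1.02 in controls and 0.494, 0 and 0.026 in SLE1.2.3 mice, with no overlap. These values came from 117, 169 and 47 reads in controls and from 64, 0 and 3 in SLE1.2.3 mice; 0 reads in mouse 2 allow up to 0.0314 FPKM. H2-T3, the thymus leukaemia antigen, had at most 4 reads in any library.

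The light chain B2m, which every class I heavy chain needs to reach the surface, rose with the heavy chains. Its 1147, 1246 and 1094 FPKM in controls stood against 1484, 1853 and 2086 in SLE1.2.3 mice, and the mean went from 1163 ± 77.3 to 1808 ± 304 (SD, n = 3; log2 0.62 ± 0.15; limma, adjusted p = 0.0429). The summed heavy chains went from 1222, 1376 and 1273 in controls to 1706, 2021 and 2048 in SLE1.2.3 mice, 1.49 times the control mean. The classical pair's sum was 1.41 times and that of the 13 Q, T and M chains 1.82 times the control mean. B2m over the heavy chain sum was 0.939, 0.906 and 0.859 in controls and 0.870, 0.917 and 1.02 in SLE1.2.3 mice, so this ratio overlapped between the groups while both of its parts did not.

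Peptide transport and loading rose in 3 of 5 genes. Tap1 and Tap2 encode the subunits of the TAP transporter. Tap1 was 28.9, 38.1 and 35.3 FPKM in controls and 52.7, 82.7 and 82.2 in SLE1.2.3 mice (log2 1.05 ± 0.20; limma, adjusted p = 0.0232). Tap2 was 32.8, 33.6 and 34.1 in controls and 46.8, 63.5 and 66.2 in SLE1.2.3 mice (log2 0.78 ± 0.13; limma, adjusted p = 0.0189). Tapbp, or tapasin, tethers class I chains to TAP and edits their peptides; it was 55.8, 55.0 and 60.2 in controls and 83.4, 126 and 137 in SLE1.2.3 mice (log2 0.97 ± 0.18; limma, adjusted p = 0.0233). In all 3, SLE1.2.3 mouse 1 lay between the controls and the other SLE1.2.3 mice. The annotated Tapbp gene overlaps Zbtb22 on the same strand by 3422 bases, so reads there cannot be told apart by strand.

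Tapbpl (TAPBPR), a peptide editor related to tapasin that works outside the TAP complex, did not pass. It was 20.4, 22.8 and 21.0 FPKM in controls and 20.8, 22.8 and 22.7 in SLE1.2.3 mice, with a log2 change of 0.05 ± 0.07 whose 95% interval ran from -0.12 to 0.22; the sign of this small value turned under quantile normalization. Erap1, which trims peptides in the endoplasmic reticulum, was 11.2, 11.2 and 12.9 in controls and 12.6, 18.8 and 22.3 in SLE1.2.3 mice. SLE1.2.3 mouse 1 lay within the control range there, and the log2 change of 0.53 ± 0.20 did not pass (limma, adjusted p = 0.111). Tapbpl overlaps Vamp1 on the other strand by 7928 bases and Erap1 overlaps Cast by 834; without a stated strand, reads of such pairs cannot be told apart. Of 8 general genes of protein entry and folding in the endoplasmic reticulum, 1 was called higher, as were 9.65% of all genes tested. It was Hspa5 (BiP), with a log2 change of 0.60 (limma, adjusted p = 0.0386). At an unadjusted p under 0.05 there were 3, all higher: Hspa5, Sec61a1 and Sec61b. Calr, Pdia3 and Canx, with changes of 0.24, 0.13 and -0.16, did not pass.

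The immunoproteasome is a proteasome in which 3 catalytic subunits are replaced by Psmb8, Psmb9 and Psmb10, which shifts the cut peptides towards ends that fit class I. All 3 were called higher. Psmb8 was 66.3, 72.4 and 66.7 FPKM in controls and 87.4, 95.6 and 98.0 in SLE1.2.3 mice (log2 0.45 ± 0.07; limma, adjusted p = 0.0176). Psmb9 was 15.1, 19.9 and 16.8 in controls and 25.6, 36.4 and 33.0 in SLE1.2.3 mice (log2 0.83 ± 0.15; limma, adjusted p = 0.0221). Psmb10 was 29.9, 32.1 and 34.8 in controls and 55.3, 76.8 and 74.8 in SLE1.2.3 mice (log2 1.06 ± 0.14; limma, adjusted p = 0.0095). None of the groups overlapped, and Psmb10 rose most on the log2 scale.

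Their constitutive partners did not pass: Psmb5, Psmb6 and Psmb7 had log2 changes of 0.09, -0.06 and -0.0049. Across 14 genes of the constitutive core, 0 were called with limma or voom and 1 (Psmb2, lower) had an unadjusted p under 0.05; the changes lay between -0.18 and 0.16 with a median of 0.06. Of 5 proteasome assembly genes 0 were called with limma or voom, and 1 (Psmg1, lower) had an unadjusted p under 0.05. Within a library, Psmb8 over Psmb5 was 0.608, 0.773 and 0.681 in controls and 0.848, 0.909 and 0.883 in SLE1.2.3 mice. Psmb9 over Psmb6 was 0.252, 0.346 and 0.318 against 0.473, 0.681 and 0.595. Psmb10 over Psmb7 was 1.03, 1.09 and 1.38 against 2.27, 2.75 and 2.38. Each ratio separated the groups fully, by 0.36, 0.93 and 1.09 on the log2 scale, and each gave p = 0.1 in a two-sided exact permutation test, also after adjustment over the 3; 0.1 is the smallest p that 3 against 3 mice can give.

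**Figure D2:**
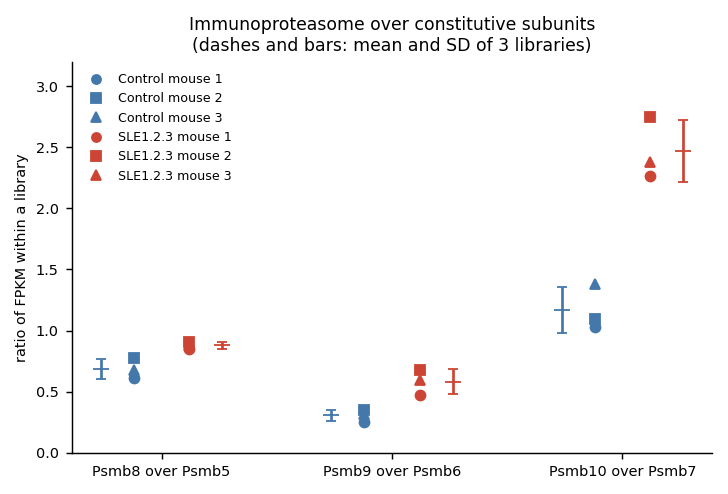
Ratio of FPKM of each immunoproteasome subunit to the constitutive subunit it replaces, 1 point per library. Dashes and bars are the mean and SD of 3 libraries. The SLE1.2.3 libraries lie above the control libraries for all 3 pairs. On the log2 scale, which is not drawn, the mean differences are 0.36, 0.93 and 1.09.

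The PA28 activators bind the ends of the proteasome and speed the release of peptides. Psme1 and Psme2, which form the cytoplasmic PA28αβ, both rose: Psme1 was 97.0, 103 and 99.3 FPKM in controls and 120, 135 and 132 in SLE1.2.3 mice (log2 0.37 ± 0.07; limma, adjusted p = 0.0248). Psme2 was 89.3, 89.4 and 84.1 in controls and 128, 137 and 145 in SLE1.2.3 mice (log2 0.63 ± 0.07; limma, adjusted p = 0.0074), the smallest adjusted p of all members. Of the 50-base windows of Psme2 transcripts, 28.3% occur in the copy Psme2b, which was also called higher (0.54; limma, adjusted p = 0.0096). Psme3, the nuclear PA28γ, was 79.2, 68.3 and 73.9 in controls and 58.3, 68.3 and 80.2 in SLE1.2.3 mice. Its groups overlapped and its log2 change of -0.11 ± 0.13 (95% interval -0.41 to 0.20) did not pass; with FPKM scaled to a common sum its sign turned to 0.0099.

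Nlrc5, the transactivator of class I genes, was 13.2, 11.5 and 13.4 FPKM in controls and 17.7, 24.5 and 29.9 in SLE1.2.3 mice (log2 0.84 ± 0.18; limma, adjusted p = 0.032). It works with the DNA-binding factors RFX, NF-Y and CREB; of 7 genes of these, 0 were called with limma or voom and 1 (Creb1, higher) had an unadjusted p under 0.05. Rfx5 was 5.38, 6.15 and 5.56 in controls and 6.13, 6.35 and 5.88 in SLE1.2.3 mice (log2 0.09; limma, adjusted p = 0.402). Of 9 genes of the interferon-γ signal, 4 were called higher and 0 lower, beside 9.65% and 5.58% of all genes tested. With voom the counts were 3 and 0, and at an unadjusted p under 0.05 they were 4 and 0. Ifng was 1.10, 1.02 and 1.61 in controls and 22.6, 189 and 422 in SLE1.2.3 mice (log2 5.79; limma, adjusted p = 0.0186). Irf1 had a log2 change of 2.11 and Ifngr1 of 0.80 (limma, adjusted p = 0.016 and 0.0058), while Jak2, Jak1 and Socs1 did not pass. Irf1 was 9.26, 11.8 and 12.6 in controls and 29.1, 64.7 and 71.3 in SLE1.2.3 mice, so SLE1.2.3 mouse 1 was again the lowest of its group.

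**Figure D3:**
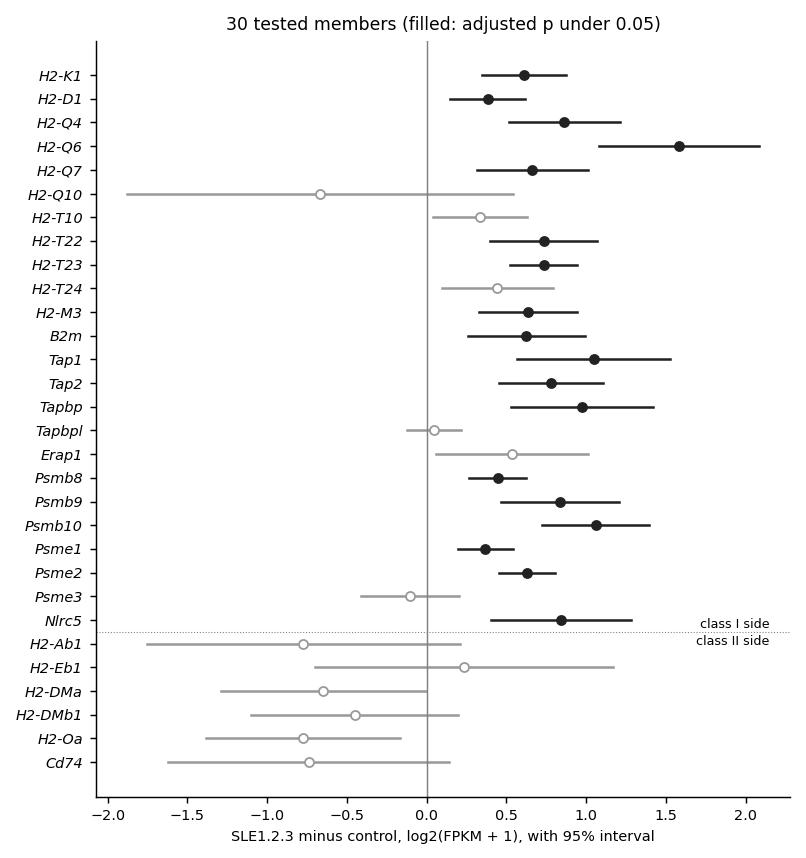
Log2 change (SLE1.2.3 minus control, in log2(FPKM + 1)) with its 95% interval for the tested members of both sides. The 18 called genes of the class I side lie between 0.37 and 1.58, and no gene of the class II side was called.

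SLE1.2.3 mouse 1 was the lowest of the 3 SLE1.2.3 libraries in 18 of the 18 called class I genes, yet above the whole control range in each of them. The γδ and the CD8 and NK marker sums were also lowest in mouse 1 among the SLE1.2.3 libraries, and highest in mouse 3. Over the 18 genes mouse 3 was the highest in 11 and mouse 2 in 7. The calls depended on the libraries: without SLE1.2.3 mouse 1 there were 21 on the class I side, without mouse 2 there was 1 (H2-T23), and without mouse 3 there were 14. Calls among all genes moved the same way, to 3705, 206 and 1259 in place of 1733. Leaving out control mouse 1, 2 or 3 left 3, 3 and 4 calls, and of these H2-Q6, H2-T23 and Psme2 were called in all 3 cases. Among all genes 313, 258 and 272 calls were left. With SLE1.2.3 mouse 1 alone against the controls, the log2 changes of H2-K1, H2-D1 and B2m were 0.44, 0.24 and 0.35. With all 3 mice they were 0.61, 0.38 and 0.62. These values of mouse 1 rest on 1 library, and the part of other cells in them was not tested.

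None of the class II genes passed the test, and their levels split the SLE1.2.3 mice. Of the 9 genes 6 were tested, and limma called 0 in either direction, as did voom, against 15.2% of all genes; at an unadjusted p under 0.05 there were 2, H2-DMa and H2-Oa. The 6 genes' median log2 change was -0.69, with a range from -0.78 to 0.23. H2-DMa and H2-Oa were also the only tested class II genes whose groups did not overlap, both lower in SLE1.2.3 mice, as were 17.7% of all genes tested. Among the SLE1.2.3 libraries, mouse 1 was the highest for all 6 tested genes, mouse 2 lay under the control range for all 6, and mouse 3 for 5.

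**Figure D4:**
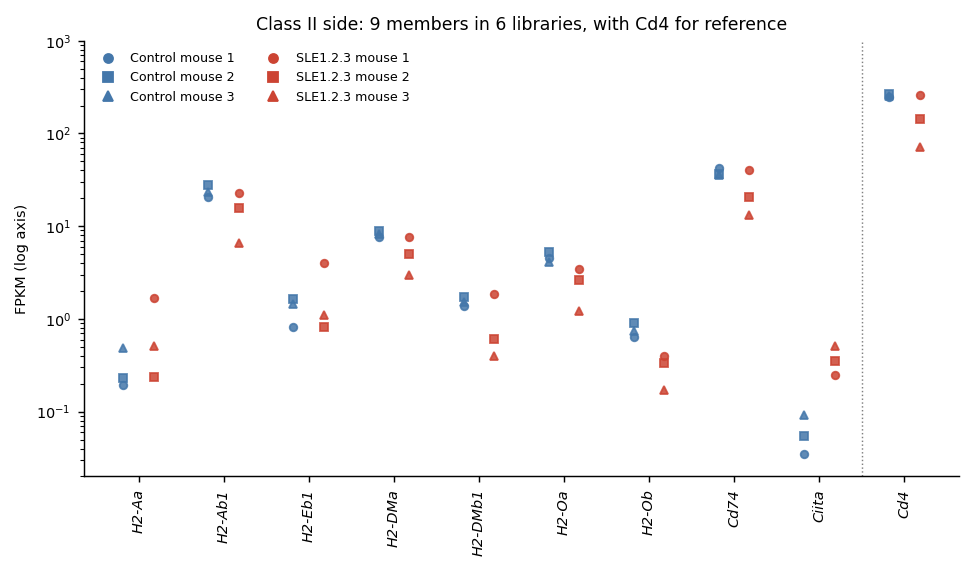
FPKM on a log axis for the 9 genes of the class II side and for Cd4, by library, with the symbols as for class I. SLE1.2.3 mice 2 and 3 lie below the controls for most genes, SLE1.2.3 mouse 1 within or above them for H2-Aa, H2-Ab1, H2-Eb1, H2-DMb1 and Cd74, and Ciita is higher in every SLE1.2.3 library.

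Among the class II chains only H2-Ab1, the I-A β chain, was well above the limit for testing in all libraries. It was 20.8, 28.1 and 23.2 FPKM in controls and 22.98, 15.9 and 6.59 in SLE1.2.3 mice. Mouse 1 lay within the control range and mice 2 and 3 under it, and the log2 change of -0.77 ± 0.41 (95% interval -1.75 to 0.21) did not pass (limma, adjusted p = 0.226). Its partner H2-Aa was far lower, at 0.194, 0.232 and 0.487 in controls and 1.69, 0.235 and 0.505 in SLE1.2.3 mice, and was not tested. H2-Eb1, the I-E β chain, was 0.828, 1.63 and 1.45 in controls and 3.96, 0.825 and 1.12 in SLE1.2.3 mice, with a log2 change of 0.23 ± 0.39 (95% interval -0.70 to 1.17). Over all 6 libraries the 2 low chains were thus highest in SLE1.2.3 mouse 1 and H2-Ab1 in control mouse 2. Among the SLE1.2.3 libraries alone, H2-Ab1 was highest in mouse 1 too.

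Summed over 10 B cell markers the levels were 2.94, 2.94 and 4.17 FPKM in controls and 6.30, 3.41 and 4.54 in SLE1.2.3 mice. The only one of them tested, Cd79b, had a control mean of 0.942 FPKM and so passed the limit through its SLE1.2.3 mean of 2.17; voom called 0. For 10 monocyte and macrophage markers they were 8.55, 9.29 and 10.2 in controls and 12.7, 6.37 and 5.499 in SLE1.2.3 mice, with 1 of 3 tested called lower (Cd68). The 10 dendritic cell markers summed to between 191 and 204 in controls and to 208, 125 and 83.8 in SLE1.2.3 mice, nearly all of it Ccr7 and Batf3, which T cells also make. Xcr1, at no more than 0.060 in controls, was 0.901, 3.89 and 5.25 in SLE1.2.3 mice, and voom called 0 of this list. Siglech, Cd209a and Clec10a were listed at 0 in most libraries. The part of these cells in the class II values was not tested.

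For orientation, the promoters of these low class II chains are shown, since the RefSeq table holds both. Capitals mark TGATTGG, a longer form of the Y box (CCAAT read on the other strand) that NF-Y is known to bind in class II promoters; the longer letters were chosen after the sequences were seen.
H2-Eb1, chr17:34305746-34305827, plus strand: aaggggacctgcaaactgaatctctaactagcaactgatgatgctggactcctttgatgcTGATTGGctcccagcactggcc
H2-Aa, chr17:34287852-34287933, minus strand: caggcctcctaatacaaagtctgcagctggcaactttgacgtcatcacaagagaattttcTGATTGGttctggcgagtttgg
TGATTGG, searched on both strands, was in 5 of the 6 class II promoters found and in 7.23% of all promoters. It was in 8 of the 16 promoters of called class I genes and in 0 of the 6 of other class I genes. GTTTCACTTC was in 6 of those 16, in 1 of those 6 (H2-Q10) and in 0 of the 6 class II promoters. Its letters were read from the H2-K1 promoter, so matches in related heavy chain genes do not bear on the calls.

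The invariant chain Cd74 fills the class II groove until the endosome and was the highest gene of the class II side. It was 42.4, 36.6 and 35.7 FPKM in controls and 40.7, 20.4 and 13.4 in SLE1.2.3 mice. As for H2-Ab1, mouse 1 lay within the control range and mice 2 and 3 under it, and the log2 change of -0.74 ± 0.37 (95% interval -1.62 to 0.14) did not pass (limma, adjusted p = 0.203). Without SLE1.2.3 mouse 1, 5 class II genes were called lower: Cd74, H2-Ab1, H2-DMa, H2-DMb1 and H2-Oa. In that fit 3705 of all 11378 genes were called, 1583 of them lower, in place of 1733 and 635; without mouse 2 or without mouse 3, 0 class II genes were called.

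H2-DM exchanges the invariant chain fragment for peptide, and H2-O holds H2-DM back. H2-DMa was 7.71, 8.95 and 8.20 FPKM in controls and 7.66, 5.04 and 2.97 in SLE1.2.3 mice (log2 -0.65 ± 0.27; limma, adjusted p = 0.142). Its gene overlaps Brd2 on the other strand by 3094 bases, and Brd2 was called higher, so reads there cannot be told apart without a stated strand. H2-DMb1 was 1.39, 1.73 and 1.52 in controls and 1.87, 0.608 and 0.396 in SLE1.2.3 mice (log2 -0.45 ± 0.27; limma, adjusted p = 0.276), and its copy H2-DMb2 showed the same spread, at 2.75, 3.13 and 3.23 against 4.14, 1.18 and 0.503. H2-Oa was 4.49, 5.26 and 4.13 in controls and 3.42, 2.60 and 1.21 in SLE1.2.3 mice, and its log2 change of -0.78 ± 0.25 came nearest to the threshold (limma, adjusted p = 0.0827). H2-Ob, not tested, was 0.635, 0.907 and 0.744 in controls and 0.396, 0.334 and 0.173 in SLE1.2.3 mice. Both H2-O genes were thus lower in all SLE1.2.3 libraries than in any control.

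Set against Cd4 in the same library, a ratio chosen after the values were seen, all 6 tested class II genes overlapped between the groups. Cd74 over Cd4 was 0.172, 0.138 and 0.141 in controls and 0.158, 0.142 and 0.187 in SLE1.2.3 mice. H2-Ab1 over Cd4 was 0.0843, 0.106 and 0.0915 in controls and 0.0893, 0.11035 and 0.0920 in SLE1.2.3 mice. H2-DMa and H2-Oa, which did not overlap as FPKM, did so as ratios to Cd4: H2-DMa was 0.0313, 0.0338 and 0.0324 against 0.0298, 0.0350 and 0.0415, and H2-Oa 0.0182, 0.0199 and 0.0163 against 0.0133, 0.0181 and 0.0169. H2-DMb1 over Cd4 was 0.00566, 0.00653 and 0.00601 against 0.00726, 0.00422 and 0.00553. H2-Eb1 over Cd4 was 0.00336, 0.00616 and 0.00574 in controls and 0.0154, 0.00573 and 0.0156 in SLE1.2.3 mice, 2.40 times the control mean and higher in mice 1 and 3 than in any control. Cd4 had a log2 change of -0.87 ± 0.43 that did not pass (limma, adjusted p = 0.199). This was the lowest change of the 10 CD4 T cell genes. Of these, 7 had a negative and 3 a positive change, and 2 were higher in SLE1.2.3 mice with no overlap. The overlap of the ratios thus holds for Cd4 as divisor, and ratios to the other genes were not computed.

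Ciita, the master regulator of class II genes, was low but higher in every SLE1.2.3 library than in any control, as were 23.9% of all genes tested. It was 0.035, 0.055 and 0.092 FPKM in controls and 0.249, 0.350 and 0.511 in SLE1.2.3 mice, from 17, 30 and 26 reads in controls and 198, 206 and 366 in SLE1.2.3 mice. The gene lay under the limit for testing. With every gene kept and 1 FPKM added, its log2 change was 0.37 and did not pass (limma, adjusted p = 0.068). With 0.1 FPKM added in place of 1, it was 1.53 and passed just under the limit (limma, adjusted p = 0.048). It overlaps Dexi on the other strand by 25888 bases, so its reads too may come from either strand. Of 5 tested genes that cut or prepare peptides for class II, Lgmn was called lower (log2 -0.73; limma, adjusted p = 0.0408) and the others, among them Ctss at 0.02, Ctsb at 0.21 and Ifi30 at -0.32, did not pass.

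**Figure D5:**
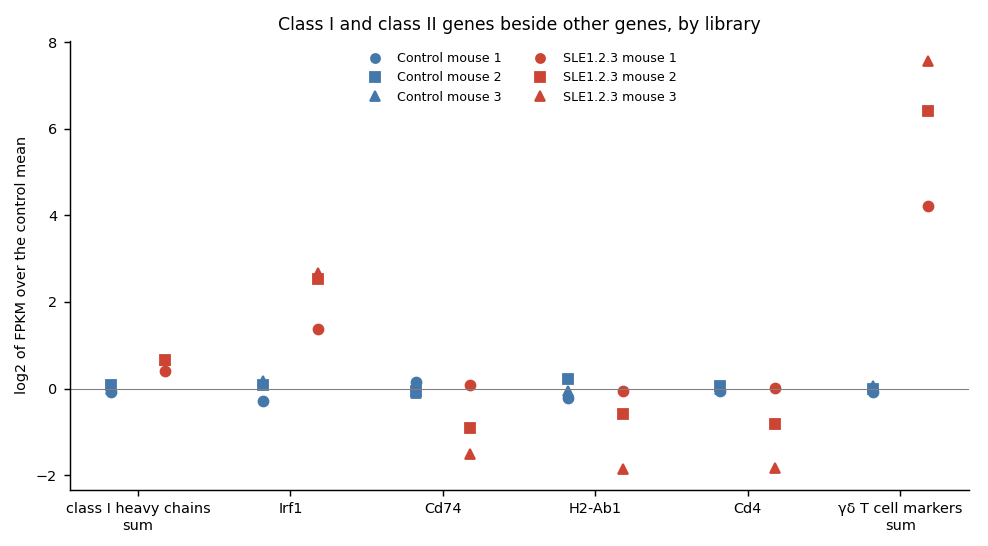
Log2 of FPKM over the control mean, by library, for the summed class I heavy chains, Irf1, Cd74, H2-Ab1, Cd4 and the summed γδ T cell markers. The heavy chain sum is 1.49 times the control mean on average in SLE1.2.3 mice, while Cd74, H2-Ab1 and Cd4 lie near the controls in SLE1.2.3 mouse 1 and lower in mice 2 and 3.

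Most members lie together: 27 of the 37 are on chromosome 17, between 33915899 and 37483552 (mm10), and 21 of these were tested, with 13 called higher and 0 lower. The other 88 tested genes of the same stretch had 12 called higher (13.6%) and 5 lower (5.68%), with a median log2 change of 0.06. Among the 12 were Prrt1 and Ly6g5b, at no more than 0.394 and 0.574 FPKM in controls. They were tested only through their SLE1.2.3 level. On the rest of chromosome 17, 9.18% of 490 tested genes were called higher. Members elsewhere were called as well: B2m on chromosome 2, Psmb10 and Nlrc5 on chromosome 8 and Psme1 and Psme2 on chromosome 14. Tap1 and Psmb9 run in opposite directions, and the RefSeq starts used here lie 226 bases apart. In GENCODE M21 the 2 genes overlap by 212 bases, where reads cannot be told apart without a stated strand. Both genes rose, with log2 changes of 1.05 and 0.83.

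Further class I-like genes outside the 37 gave 2 higher calls and 1 lower among 4 tested, beside 9.65% higher and 5.58% lower of all genes tested. H2-Q5, annotated as a polymorphic pseudogene, was 9.93, 14.1 and 12.5 FPKM in controls and 25.3, 31.8 and 33.3 in SLE1.2.3 mice (log2 1.243; limma, adjusted p = 0.0084). Some windows of H2-Q6 and H2-Q7 transcripts occur in H2-Q5 too, so the split of reads among these genes is uncertain. Cd1d1, which presents lipids to NKT cells, was 0.951, 1.38 and 1.74 in controls and 2.55, 4.79 and 5.68 in SLE1.2.3 mice (log2 1.14; limma, adjusted p = 0.0346). H2-T-ps, a pseudogene, was lower, at 66.6, 92.5 and 71.7 in controls and 53.3, 35.8 and 25.3 in SLE1.2.3 mice (log2 -1.04; limma, adjusted p = 0.0498), a call that voom did not make. Mr1, which presents vitamin B metabolites to MAIT cells, did not pass.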

How the data were processed

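The authors deposited 1 table of FPKM values for 33300 genes with their coordinates and lengths (mm10). Per the submitters' processing notes, FastQC 0.11.9, cutadapt 2.10, STAR 2.7.3a, featureCounts 2.0.0 and DESeq2 1.24.0 were used, with no role or order; for the counting, the strand setting is not given in the sources used here, nor is the annotation release. Libraries were made from RNA with a SMARTER mRNA-Seq kit, per the labels' protocols. In each column FPKM times length in kb summed to the same total, and low values (under 30 reads) were all whole numbers of reads within 0.15, which gave the depth per library and the read counts quoted for low genes. All 37 members had the same coordinates in GENCODE M21. 24 symbols that had become dates were restored from their IDs.

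Changes were tested with limma 3.58.1 in R 4.3.3 on log2(FPKM + 1), with empirical Bayes and a mean-variance trend, genotype as the only term, for genes whose mean reached 1 FPKM, Benjamini-Hochberg over 11378 genes and a threshold of 0.05; the procedure was checked on simulated data. The p-values rest on the spread between 3 mice a group. Exact permutation tests used scipy 1.17.1. The 37 genes, the gene lists and the alternatives were chosen with earlier results of these data known. Every member is named; from each pathway list the called genes (at most 5) and up to 3 others with the highest mean were eligible to be named, from each marker list up to 3. Alternatives were other pseudocounts (0.1), filters (none, or a mean of at least 5 FPKM), scalings, array weights, voom on recovered reads, a replicate block and leaving out libraries. Promoter sequences are RefSeq's (GRCm38.p6). Sequence windows shared between genes were counted in GENCODE M21 transcripts. Depth limits low genes: a count of 0 allows up to 3 reads, for counting error only. Some genes of these lists are not reported here.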

Additional observations from a re-analysis of the deposited data

How the results depend on the processing

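The 18 higher calls of the class I side became 5 with no filter on low values (30034 genes adjusted over). Leaving out each library in turn gave 1 to 21. For SLE1.2.3 mouse 1 alone against the controls no calls are given, since its group then holds 1 library. With the mouse number as a replicate block 14 were called, and the class II side stayed at 0. Same-numbered mice did not deviate together (r = -0.00401, 0.1 and 0.0914), so no pairing was assumed; under the block 940 genes of all were called in place of 1733. The 0 calls of the class II side became 5 with array weights, 1 (Ciita) with 0.1 FPKM added and no filter, and 0 to 5 on leaving out each library. Signs turned for H2-Q10 (0.0637), H2-DMb1 (0.17), Cd74 (0.0942) and Tapbpl (-0.0358) with SLE1.2.3 mouse 1 alone, for Tapbpl under quantile normalization (-0.0038), for Psme3 with a common FPKM sum (0.0099) and for H2-Eb1 with array weights (-0.32); none of these 6 genes was called as reported. Leaving out single libraries, Psme3 lay between -0.22 and 0.00725 and H2-Eb1 between -0.21 and 0.51. All-gene calls were 798 with no filter and 6952 with array weights. Leaving out control mouse 1, 2 or 3 gave 313, 258 and 272 all-gene calls. Leaving out mouse 1, 2 or 3 of the SLE1.2.3 group gave 3705, 206 and 1259. Scaling moved their balance: 1098 higher and 635 lower as reported, 1006 and 349 with a common FPKM sum (median of all genes 0.112 in place of 0.0126), 921 and 881 with quantile normalization. The subunit ratios kept their sign throughout. Where a setting changes a call beyond the number of genes or libraries, the cause was not tested.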

Other observations

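Within the chromosome 17 stretch that holds most MHC genes, 12 genes outside the 37 were called higher and 5 lower; those named here were chosen after their values were seen. Lta, which encodes lymphotoxin α, was 102, 53.2 and 52.0 FPKM in controls and 32.3, 14.4 and 15.8 in SLE1.2.3 mice, a log2 change of -1.70 (limma, adjusted p = 0.0343). Ubd, the ubiquitin-like FAT10 that interferon-γ is known to induce, was 2.86, 1.49 and 2.06 in controls and 0.631, 0.905 and 0.829 in SLE1.2.3 mice, a log2 change of -0.79 (limma, adjusted p = 0.0326). Both were thus lower in every SLE1.2.3 library, whereas Gabbr1 was higher in every one, at 7.56, 7.47 and 7.84 against 11.8, 13.2 and 15.3 (log2 0.73; limma, adjusted p = 0.0095).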
